A study of Mus musculus with 6 samples.

Results

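The nuclear lamina and envelope genes described here are 8: the lamin genes Lmnb1, Lmnb2 and Lmna, the lamin B receptor gene Lbr, Tmpo, Emd, Banf1 and Vrk1. They were chosen by symbol, through the probe sets that the platform annotation gives that symbol alone, and all 8 were found among the 19938 named genes, with 9 probe sets. The RNA came from livers of 3 CyclinB1-GFP transgenic mice, weaned and 3.5 weeks old, with no other treatment named in the labels. Dissociated cells were sorted into a GFP-positive fraction, labelled as replicating, and a GFP-negative fraction, labelled as quiescent, and each fraction was measured on 3 Affymetrix arrays, labelled as biological replicates. Both groups therefore carry the same transgene and differ in reporter fluorescence, and the labels name no promoter for the reporter and no gate for a cell type. Whole sorted fractions were measured, so fewer cells of a type and less RNA per cell cannot be told apart.

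Lamins are intermediate filament proteins that form a meshwork under the inner nuclear membrane. B-type lamins, from Lmnb1 and Lmnb2, stay bound to the membrane through a lipid anchor, while Lmna encodes the A-type lamins A and C, which are prominent in differentiated cells. Lbr and the products of Tmpo (the lamina-associated polypeptide 2 family) and Emd (emerin) tether chromatin to the lamina, and those of Tmpo and Emd carry a LEM domain that binds the DNA-bridging protein encoded by Banf1. Vrk1 encodes a kinase that phosphorylates the Banf1 product and releases it from DNA when the envelope is taken apart in mitosis.

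Sequence is shown first for the genes the comparison turns on. RefSeq promoter entries (GRCm38.p6) were matched by symbol for 7 of the 8 genes, in 14 entries, and not for Lmnb1. Where a gene had several entries, the one nearest the gene's annotated 5′ end was taken. The 250 bases before the transcript start follow for Tmpo and Vrk1, which rose, and for Lbr, Lmnb2 and Lmna, with which they are set. Each runs 5′ to 3′, and capitals mark matches on either strand to TTTGAA (the core of the cell cycle homology element), CCAAT, GGCGGGAA (an E2F-type sequence) or GGGCGG (a GC box).
Tmpo (chr10:91171620-91171869, - strand): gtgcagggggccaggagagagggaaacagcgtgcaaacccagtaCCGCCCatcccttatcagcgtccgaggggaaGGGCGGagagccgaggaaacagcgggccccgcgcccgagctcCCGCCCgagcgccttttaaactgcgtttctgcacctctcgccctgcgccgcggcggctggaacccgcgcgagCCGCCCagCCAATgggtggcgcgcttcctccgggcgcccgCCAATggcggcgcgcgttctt
Vrk1 (chr12:106010013-106010262, + strand): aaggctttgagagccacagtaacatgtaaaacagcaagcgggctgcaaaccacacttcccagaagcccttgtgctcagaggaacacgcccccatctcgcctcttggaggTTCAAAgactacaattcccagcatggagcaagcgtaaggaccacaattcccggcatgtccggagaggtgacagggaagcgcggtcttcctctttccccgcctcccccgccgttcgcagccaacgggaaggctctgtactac
Lbr (chr1:181842402-181842651, - strand): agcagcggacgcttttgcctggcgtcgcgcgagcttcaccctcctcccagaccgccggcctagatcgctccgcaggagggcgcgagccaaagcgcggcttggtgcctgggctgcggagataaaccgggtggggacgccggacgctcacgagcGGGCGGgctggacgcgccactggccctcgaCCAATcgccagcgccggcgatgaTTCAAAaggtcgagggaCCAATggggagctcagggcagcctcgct
Lmnb2 (chr10:80918246-80918495, - strand): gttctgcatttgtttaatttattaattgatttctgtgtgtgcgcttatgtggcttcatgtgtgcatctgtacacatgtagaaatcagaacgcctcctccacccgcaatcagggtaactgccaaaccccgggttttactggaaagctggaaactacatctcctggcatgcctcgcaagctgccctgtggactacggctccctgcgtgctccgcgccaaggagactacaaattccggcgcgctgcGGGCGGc
Lmna (chr3:88503353-88503602, - strand): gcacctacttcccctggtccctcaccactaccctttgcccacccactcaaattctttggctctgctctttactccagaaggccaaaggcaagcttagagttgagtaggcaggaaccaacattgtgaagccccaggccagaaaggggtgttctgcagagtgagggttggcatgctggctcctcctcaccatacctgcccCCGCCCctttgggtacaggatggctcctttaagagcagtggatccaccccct

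In these windows TTTGAA was found in 2 of the 7 genes, in Lbr 45 bases and in Vrk1 141 bases before the start, both on the reverse strand. It was present in 15.99% of all 32851 RefSeq windows of the same length. CCAAT was found in 4 of the 7 (33.85% of all windows), with 2 copies each in Tmpo, at 53 and 21 bases, and in Lbr, at 68 and 28 bases. GGCGGGAA was found in Banf1 alone, overlapping a GC box (1.86% of all windows), and GGGCGG in 6 of the 7 (32.74%), with 4 copies in Tmpo. A further Tmpo entry, not printed, held TTTGAA and GGCGGGAA at 28 and 83 bases. Other entries not printed held CCAAT at 131 bases for Lmna and GGGCGG at 43, 24 and 11 bases for Banf1. Further Vrk1 entries held CCAAT at 80 bases and, in another, TTTGAA at 56. The further Lmnb2 entry held none of these motifs. The printed windows of Lmnb2 and Lmna held a GC box and no other of these motifs. These matches describe letters only, and no binding was measured.

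Array medians ran from 24.3 to 26.7 in intensity, or from 4.60 to 4.74 on the log2 scale, and precision is limited by the number of arrays. All values below are log2 intensities of 1 probe set per gene, given as mean ± SD (n = 3 arrays per group). Each difference is the GFP-positive mean less the GFP-negative mean, with its SE from limma, and p-values were adjusted over all 19938 genes by Benjamini-Hochberg with a threshold of 0.05. At that threshold 310 genes were higher (1.55%) and 23 lower (0.115%), the latter 6 to 29 when single arrays were left out. All 16 mitosis genes listed as a check of the sort were higher, with a median difference of 3.78. Hepatocyte markers were bright on every array: the mean level of 9 such genes, Alb and Apoa1 among them, ran from 11.83 to 12.04 in GFP-negative and from 11.72 to 11.91 in GFP-positive arrays.

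Of the 8 lamina and envelope genes, 3 rose in GFP-positive cells, namely Tmpo, Lmnb1 and Vrk1, and none fell. The other 5, Lbr, Lmna, Lmnb2, Emd and Banf1, did not pass the test. All 8 differences lay above 0, with a median of 0.50, against a median of -0.03 over all genes, of which 44.3% lay above 0. In 5 of the 8 (Tmpo, Lmnb1, Vrk1, Lbr and Lmna) every GFP-positive array lay above every GFP-negative array, as in 6.82% of all genes.

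**Figure D1:**
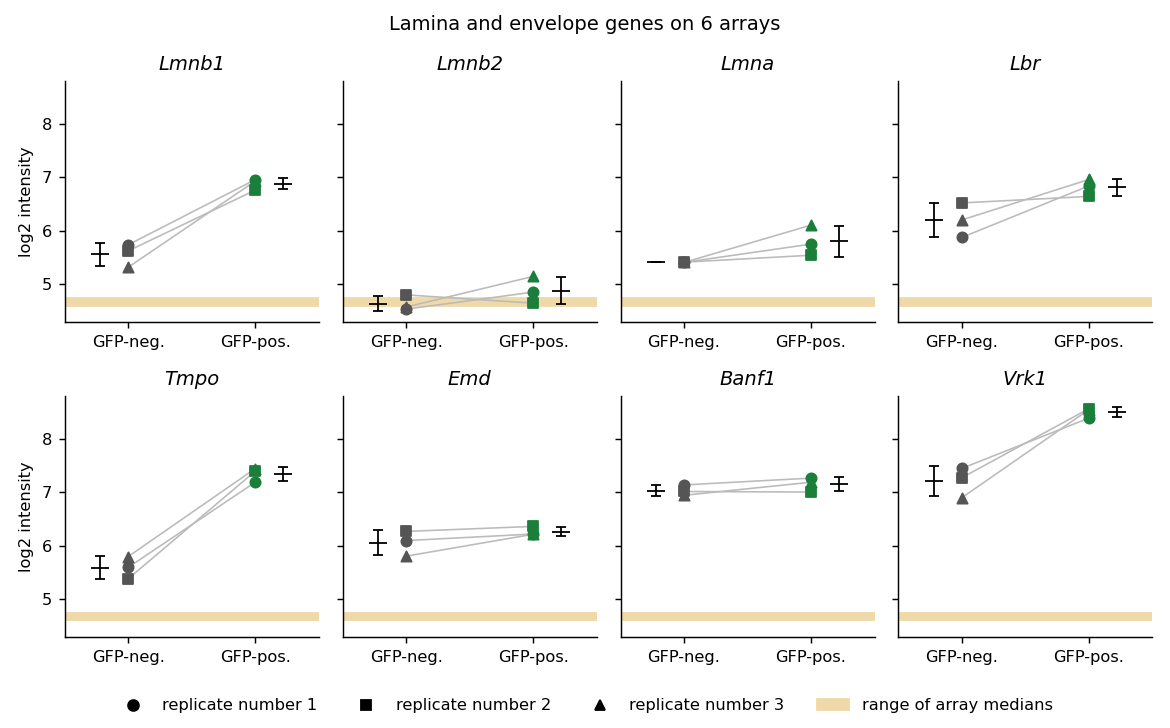
Log2 intensity of the 8 genes on each of 6 arrays, with marker shapes for the replicate numbers, grey lines joining equal numbers, bars for mean ± SD (n = 3) and a band for the range of array medians. Lmnb1, Tmpo and Vrk1 stand well apart between the groups, while Lmnb2 lies at the array medians and Banf1 and Emd overlap.

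Of the B-type lamin genes, Lmnb1 rose and Lmnb2 did not pass. Lmnb1 (probe set 10455813) measured 5.74, 5.62 and 5.32 in GFP-negative and 6.96, 6.76 and 6.93 in GFP-positive arrays of numbers 1, 2 and 3. The groups did not overlap, and the GFP-positive arrays lay within a narrow band. Lmnb1 rose by 1.32 ± 0.15 (5.56 ± 0.22 to 6.88 ± 0.11), or 2.50-fold with a 95% interval of 1.97 to 3.18 (adjusted p = 0.0013), rank 193 among the differences of all genes. Lmnb2 (probe set 10371012) measured 4.53, 4.80 and 4.57 in GFP-negative and 4.85, 4.65 and 5.15 in GFP-positive arrays. Its groups overlapped, and in number 2 the GFP-positive array was the lower one. The Lmnb2 difference was 0.25 ± 0.17 (4.64 ± 0.14 against 4.88 ± 0.25, adjusted p = 0.79), with a 95% interval of -0.13 to 0.62. Of the GFP-negative arrays 2, and of the GFP-positive arrays 1, lay below their array's median for Lmnb2. Little signal therefore stood behind this gene, and how far that limited the measured change was not tested.

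Lmna, the A-type lamin gene (probe set 10499394), measured 5.41 in each of the GFP-negative arrays and 5.75, 5.54 and 6.11 in GFP-positive arrays 1, 2 and 3. The groups did not overlap, but the GFP-positive arrays were spread widely while the GFP-negative ones differed by less than the second decimal shows. The difference was 0.39 ± 0.16 (5.41 ± 0.0023 against 5.80 ± 0.29), with a 95% interval of 0.02 to 0.76 (unadjusted p = 0.041, adjusted p = 0.52 by limma), so it did not pass over all genes. Lmna had 1 probe set with that symbol alone, so lamin A and lamin C transcripts were not told apart.

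Among the tethers, Tmpo had the largest rise of the 8 genes. Tmpo (probe set 10371888) measured 5.59, 5.38 and 5.80 in GFP-negative and 7.19, 7.39 and 7.44 in GFP-positive arrays. The lowest GFP-positive array lay far above the highest GFP-negative one. It rose by 1.75 ± 0.16 (5.59 ± 0.21 to 7.34 ± 0.14), or 3.37-fold with a 95% interval of 2.64 to 4.29 (adjusted p = 0.00018), rank 140 among all genes. Tmpo had 1 probe set with that symbol alone, so its membrane-bound and nucleoplasmic splice forms were not told apart. Which of them the probe set covers was not examined.

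Lbr (probe set 10360745), which encodes a membrane protein that binds B-type lamins and heterochromatin protein 1 and also has sterol reductase activity, measured 5.88, 6.52 and 6.20 in GFP-negative and 6.84, 6.64 and 6.96 in GFP-positive arrays. The groups lay apart by a small margin, with the GFP-negative array of number 2 the highest of its group. The difference was 0.61 ± 0.18 (6.20 ± 0.32 against 6.81 ± 0.16; adjusted p = 0.23), or 1.53-fold with a 95% interval of 1.15 to 2.04. Between arrays of equal number it was 0.96, 0.12 and 0.76. With number 2 left out in both groups the difference was 0.86 (adjusted p = 0.089), still short of the threshold.

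Emd and Banf1 overlapped between the groups. Emd (probe set 10600341) measured 6.09, 6.27 and 5.80 in GFP-negative and 6.22, 6.36 and 6.21 in GFP-positive arrays, a difference of 0.21 ± 0.16 (6.05 ± 0.23 against 6.26 ± 0.08, adjusted p = 0.83) with a 95% interval of -0.14 to 0.56. The GFP-negative array of number 3 was the lowest of the 6. Banf1 (probe set 10465005) measured 7.14, 7.01 and 6.94 in GFP-negative and 7.26, 7.002 and 7.19 in GFP-positive arrays. Its difference was the smallest of the 8 genes, 0.12 ± 0.14 (7.03 ± 0.10 against 7.15 ± 0.13, adjusted p = 0.90), with a 95% interval of -0.19 to 0.43, so that a rise past 1.35-fold lay outside it. A second Banf1 probe set, 10601471, lay near or below the array medians (4.28 ± 0.62 against 4.58 ± 0.26) and differed by 0.30 ± 0.29 (adjusted p = 0.87 with all probe sets tested).

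Vrk1 (probe set 10398173), the kinase gene, measured 7.45, 7.27 and 6.90 in GFP-negative and 8.39, 8.56 and 8.55 in GFP-positive arrays. The groups did not overlap, and the rise was seen in each number, at 0.94, 1.29 and 1.65. Vrk1 rose by 1.29 ± 0.17 (7.20 ± 0.28 to 8.50 ± 0.10), or 2.45-fold with a 95% interval of 1.89 to 3.18 (adjusted p = 0.0025), rank 198 among all genes. The Banf1 gene, whose product this kinase acts on, thus measured 1.09-fold higher without passing while Vrk1 rose.

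**Figure D2:**
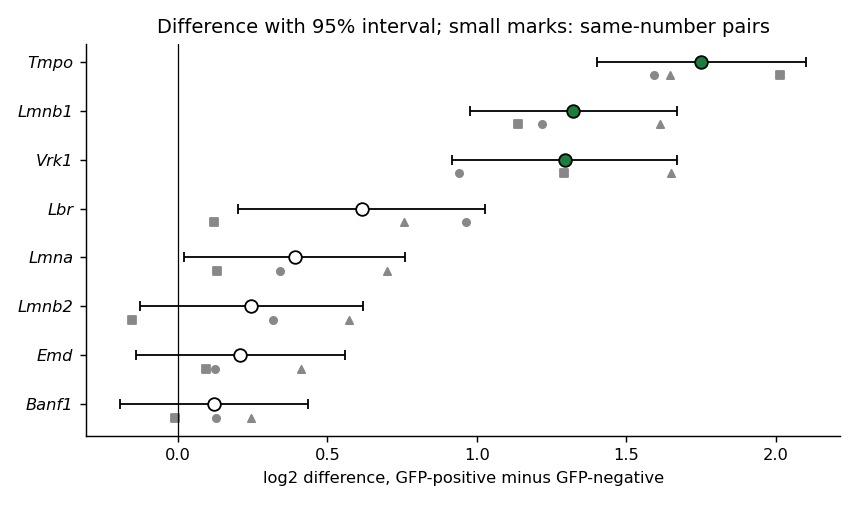
Log2 difference of each gene, GFP-positive minus GFP-negative, with its 95% interval from limma. Filled circles passed at an adjusted p below 0.05, open ones did not, and small marks give the difference between arrays of replicate numbers 1 (circle), 2 (square) and 3 (triangle). Tmpo, Lmnb1 and Vrk1 lie above 0.9 at the lower end of their intervals, and the intervals of Lmnb2, Emd and Banf1 include 0.

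The replicate numbers moved with the size of some differences. Number 2 gave the smallest difference for Lmnb1 (1.14), Lbr (0.12), Lmna (0.13), Lmnb2 (-0.15), Emd (0.09) and Banf1 (-0.01), but the largest for Tmpo (2.01). Number 2 was also the one with high Xist, the transcript that silences an X chromosome, and low Eif2s3y, a Y-linked gene, in both fractions, so mouse and sex cannot be told apart here. Without both its arrays, Lmnb1 (1.42, adjusted p = 0.011), Tmpo (1.62, adjusted p = 0.0034) and Vrk1 (1.30, adjusted p = 0.030) still passed by limma. Lmna (0.52, adjusted p = 0.37) and Lmnb2 (0.45, adjusted p = 0.44) measured larger differences there and did not pass. Without GFP-positive 3 they measured smaller ones, at 0.24 for Lmna and 0.11 for Lmnb2. Single arrays also moved the uncalled differences of Emd, between 0.08 (without GFP-negative 3) and 0.31 (without GFP-negative 2), and of Banf1, between 0.06 (without GFP-positive 1) and 0.19 (without GFP-positive 2).

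The B-type lamins were then set against the other genes by subtracting log2 values within each array, which compares changes and not levels. There were 13 such pairs, and with 3 arrays against 3 an exact two-sided permutation test cannot give a p below 0.10. Adjusted over the 13 pairs, that smallest p came to 0.14 in these data. Lmnb1 minus Lmna was 0.33, 0.21 and -0.09 in GFP-negative and 1.21, 1.22 and 0.82 in GFP-positive arrays. Lmnb1 thus gained 0.93 ± 0.18 (SE) on Lmna, and the groups did not overlap (exact permutation p = 0.10, adjusted 0.14). The gain on Emd was 1.11 ± 0.14 and that on Banf1 1.20 ± 0.08, both without overlap and at the same smallest p. Against Lmnb2 the measured change was 1.08 ± 0.18, also without overlap, but Lmnb2 lay at the array medians, so this value and those of the other pairs with Lmnb2 are measured differences of a dim probe set and show no contrast between the genes. Against Lbr the gain was 0.71 ± 0.26, again without overlap, but between arrays of equal number it ran from 0.25 to 1.02. Lmnb1 and Vrk1 overlapped, with a change of 0.03 ± 0.11 (exact permutation p = 0.90), and Lmnb1 and Tmpo did too, with a change of -0.43 ± 0.26 (exact permutation p = 0.20).

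Lmnb2 minus Tmpo measured a change of -1.51 ± 0.24 and Lmnb2 minus Vrk1 a change of -1.05 ± 0.23, both without overlap. Against Lbr the change was -0.37 ± 0.13 and against Lmna -0.14 ± 0.08, also without overlap and with an exact permutation p of 0.10. Against Lmna it was -0.06 without GFP-negative 2, and from -0.12 to -0.19 without any other single array. Against Emd (0.04 ± 0.21) and Banf1 (0.13 ± 0.16) the groups overlapped (exact permutation p = 0.90 and 0.50).

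**Figure D3:**
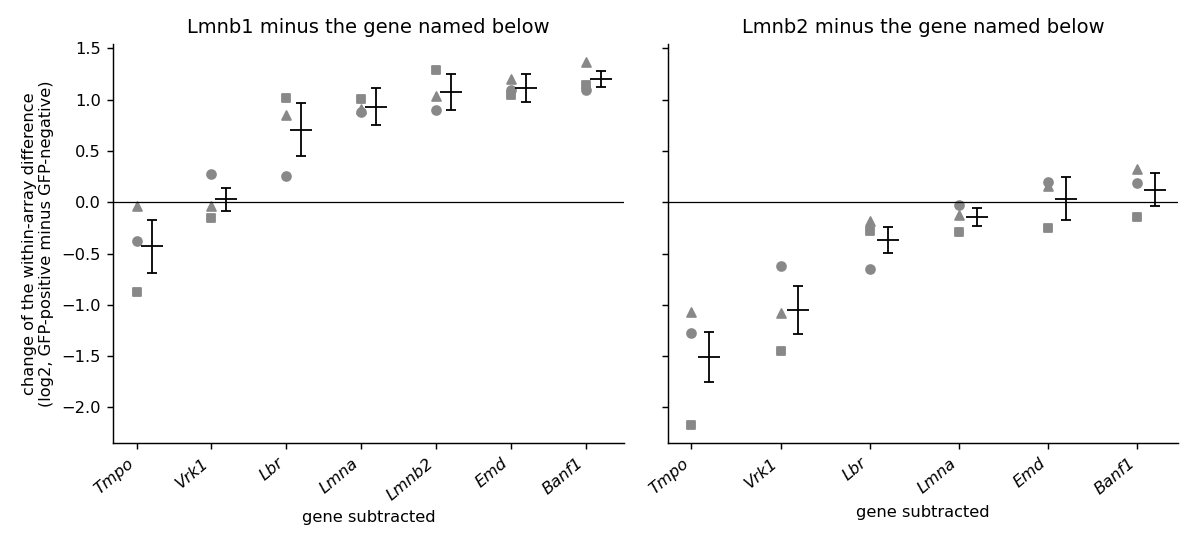
Change of the within-array log2 difference between a B-type lamin gene and the gene named on the axis, GFP-positive minus GFP-negative. Grey marks are changes between the arrays of replicate number 1 (circle), 2 (square) and 3 (triangle). Bars are the mean change ± SE, with arrays taken as unpaired (n = 3 arrays per group). Lmnb1 gained on Lbr, Lmna, Emd and Banf1 in every number, and pairs with Lmnb2 rest on a probe set at the array medians.

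Other genes of the envelope and of lamin handling were read from the same fit. Among 22 measured genes of the inner nuclear membrane and of the LINC complex, which joins the lamina to the cytoskeleton, Nrm rose and none fell (median 0.11). Of the 22, 2 had an unadjusted p below 0.05 by limma, each higher. The share of all genes below that unadjusted cut was not counted. Such counts, here and in the lists below, are therefore not set against a background. Nrm, which encodes the multi-pass inner membrane protein nurim, measured 5.76 ± 0.21 against 6.94 ± 0.24, a rise of 1.18 ± 0.17, or 2.27-fold (adjusted p = 0.0063). Nemp1, another inner membrane protein gene, measured the largest difference of that list, 1.22 ± 0.31, and did not pass (adjusted p = 0.13, or 0.035 with the replicate block). It was chosen for mention after its values were seen, as were the LEM domain genes Lemd2 (0.15 ± 0.19) and Lemd3 (0.25 ± 0.29), neither of which passed. None of 6 genes of lamin processing passed limma's test (median 0.01), and 0 had an unadjusted p below 0.05. Fnta, a farnesyltransferase subunit gene, had the largest difference of these (0.27 ± 0.16, adjusted p = 0.73), and Zmpste24, the prelamin A protease gene, also named after its values were seen, stood at 9.79 in the GFP-negative and at 9.82 in the GFP-positive fraction.

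The next list held 20 genes of kinases, phosphatases and anchors that act on lamins or at the envelope (median 0.11). Of these 20, 5 had an unadjusted p below 0.05 by limma, all higher. After adjustment 3 rose and none fell. They were Cdk1, the mitotic kinase that phosphorylates lamins (4.51 ± 0.17, 22.7-fold, adjusted p = 1.2e-06), Cdca2, which targets protein phosphatase 1 to chromatin (2.62 ± 0.15, adjusted p = 8.9e-06), and the centrosomal kinase gene Nek2 (2.40 ± 0.21, 5.27-fold, adjusted p = 0.00017). Cdca2 lay at the array medians in GFP-negative cells (4.66 ± 0.15), so its fold is a lower bound, at least 5.81-fold, computed with lower values set to the median of their array. The catalytic phosphatase genes of the list were among the 17 that did not pass. None of 18 genes of envelope sealing and membrane lipid supply passed limma's test (median -0.03). At an unadjusted p below 0.05 by limma were 3 of them, 1 higher and 2 lower. The largest difference was that of the phosphatase regulator gene Cnep1r1 (0.72 ± 0.18, adjusted p = 0.13, or 0.035 without GFP-negative 1).

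Among 16 measured genes of heterochromatin proteins that meet the lamina, Cbx5 rose and none fell (median 0.16). The unadjusted p of limma lay below 0.05 for 5 higher genes and 1 lower gene of the list. Cbx5 encodes heterochromatin protein 1 alpha, a partner of Lbr, and measured 7.03 ± 0.09 against 8.31 ± 0.17, a rise of 1.28 ± 0.15, or 2.43-fold (adjusted p = 0.0010). Its relatives Cbx3 (0.66 ± 0.15, adjusted p = 0.069) and Cbx1 (0.56 ± 0.17, adjusted p = 0.24), named after their values were seen, did not overlap between the groups and did not pass. Of 8 sterol synthesis genes around the reductase step that Lbr shares, none passed limma's test, 0 had an unadjusted p below 0.05, and all 8 lay below 0 (median -0.26). Tm7sf2, the other gene for a sterol C14 reductase, had the largest difference there, at -0.36 ± 0.19 (adjusted p = 0.66), while Lbr measured 0.61.

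Among 27 measured nuclear pore genes, 15 had an unadjusted p below 0.05 by limma, all of them higher (median 0.36). Whether 15 of 27 exceeds the share over all genes at that cut was not tested. After adjustment 3 rose and none fell. They were Ndc1, which encodes a transmembrane nucleoporin (1.71 ± 0.15, 3.28-fold, adjusted p = 0.00014), Nup107 (1.13 ± 0.18, adjusted p = 0.010, or 0.055 without GFP-positive 3) and Nup160 (0.75 ± 0.15, adjusted p = 0.036, or 0.077 with the replicate block), both of the outer ring complex. Nup160 passed without GFP-positive 2 but not without any other single array (adjusted p = 0.073 to 0.17). The count of pore genes was 1 without GFP-positive 3 and 5 without GFP-positive 2. In the sort check, 7 of 12 DNA replication genes rose (median 1.19), led by Rrm2 (6.66-fold) and Rrm1 (4.25-fold), the ribonucleotide reductase genes. The 3 risen lamina genes, at 1.29 to 1.75, measured above that median and below the lowest of the 16 mitosis genes (2.49). They were picked by passing on these same values, while the replication median covers all 12 genes. The median of all 8 lamina and envelope genes was 0.50. Whether these groups differ was not tested.

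**Figure D4:**
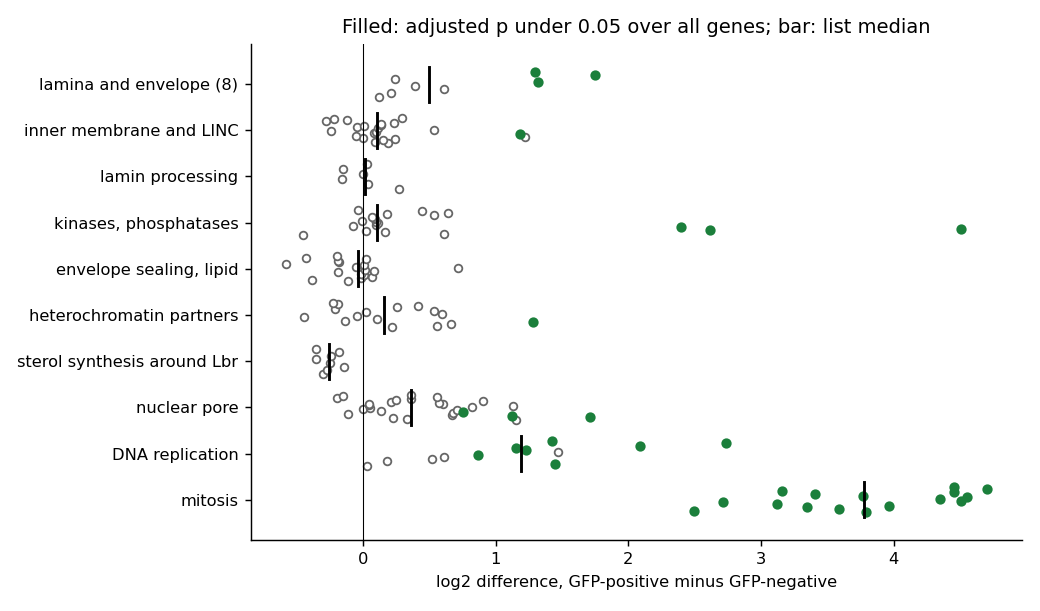
Log2 difference of each gene in the listed groups, GFP-positive minus GFP-negative, with filled circles for an adjusted p below 0.05 over all genes, open circles for the others and a bar for the group's median. The 8 lamina and envelope genes have a median of 0.50, between the nuclear pore genes at 0.36 and the DNA replication genes at 1.19.

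Profiles over the 6 arrays were also compared with those of the other genes brighter than the array medians (11341 genes searched), by the root mean square distance between centred log2 values. The nearest to Lmnb1 were Anapc15, a subunit gene of the anaphase-promoting complex (distance 0.09), Pola1, the catalytic subunit of DNA polymerase alpha (0.10), and Mcm8, a helicase gene of recombination (0.11). The nearest to Tmpo were the nucleoporin gene Ndc1 (0.08), the chromatin ATPase gene Atad2 (0.10) and the mitotic kinesin gene Kif15 (0.11). The nearest to Vrk1 were Hpf1, a cofactor gene of poly(ADP-ribose) polymerase (0.09), the GTPase-activating protein gene Arhgap18 (0.11) and Haus1, an augmin subunit gene (0.11). These are descriptions over 6 arrays that share the same group difference.

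Markers of other liver cells were measured beside the members, since lamin genes are used differently by different cell types, and their part in the results was not tested. No marker list had members called higher except the erythroid one, in which Car2, a carbonic anhydrase gene also active outside red cells, rose by 0.95 ± 0.16 (adjusted p = 0.016), while the other 5 of its 6 measured genes did not pass. Car2 did not pass without GFP-negative 1 or 3 or without GFP-positive 1 or 3 (adjusted p = 0.058 to 0.085). It also lay below the array median on 2 GFP-negative arrays, and its rise was 1.83-fold with lower values set to the median of their array. Of 8 Kupffer cell markers, Clec4f fell by 0.68 on the log2 scale (adjusted p = 0.032, or 0.077 under the block), but it missed the threshold whichever single array was left out (adjusted p = 0.070 to 0.15). Of 8 endothelial and 8 stellate markers none passed limma's test (medians -0.27 and -0.25), with 2 in each list at an unadjusted p below 0.05, all lower. None of 6 cholangiocyte, 7 lymphoid or 8 neutrophil markers passed it either (medians -0.08, 0.07 and -0.16), with 0, 0 and 1 (lower) at an unadjusted p below 0.05. The largest differences in these lists were those of Cdh5 (-0.71), Dcn (-0.86), Onecut2 (-0.31), Igll1 (-0.34) and S100a8 (-0.97). S100a8 lay below the array median on 2 GFP-negative and all 3 GFP-positive arrays, so its value is that of a dim probe set. The mean level of the lymphoid list ran from 3.71 to 3.97 in GFP-negative and from 3.74 to 3.91 in GFP-positive arrays, and 5 of its 7 genes lay below the array medians in both groups. That of the endothelial list ran from 5.18 to 5.48 and from 4.995 to 5.06, that of the stellate list from 5.04 to 5.15 and from 4.66 to 4.87, and that of the Kupffer list from 4.12 to 4.55 and from 4.12 to 4.26. The same ranges were 4.48 to 4.72 and 4.43 to 4.53 for the cholangiocyte list, 5.40 to 5.50 and 5.25 to 5.50 for the erythroid list, and 4.01 to 4.45 and 3.79 to 4.02 for the neutrophil list. Means lay below the array medians in both groups for 6 of 8 Kupffer, 5 of 8 neutrophil and 4 of 6 cholangiocyte markers. The same held for 3 of 8 stellate, 2 of 6 erythroid and 1 of 8 endothelial markers.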

How the data were processed

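RNA of sorted GFP-positive and GFP-negative liver cells was measured on 3 arrays per group. Per the submitters' processing notes, the authors ran RMA, and the deposited table gives an intensity for every probe set on every array. RMA's version and settings are not stated in the labels. They are on a linear scale (1.62 to 15836), so log2 was taken and nothing else normalized. Of 35512 probe sets, 21789 had 1 symbol, 1621 several and 12102 none. For 21698 of the 21789, the symbol was taken from a GRCm38 gene table through the Entrez identifier. How many symbols this changed was not counted. Each of 19938 genes was represented by its brightest probe set over all arrays, without a filter on low values. No detection calls were used.

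Groups were compared with limma 3.58.1 in R 4.3.3 (lmFit, eBayes, 4 residual and 5.44 prior degrees of freedom, Benjamini-Hochberg over all genes), checked on simulated data. Pairs of genes were compared with an exact permutation test in scipy 1.17.1. The members and the 17 gene lists were chosen with earlier results of these data known. Named were all members, up to 4 called genes per list by size or else the gene with the largest difference, and the 3 nearest profiles of each called member. Listed symbols without a match were not analysed here.

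The design text has both fractions sorted from each of 3 livers, so equal replicate numbers were read as pairs, although no label ties a number to a mouse. That pairing entered the replicate block, the differences between arrays of equal number and the fit without both arrays of number 2. The main limma fit, with its SE, intervals and p-values, took the arrays as unpaired. So did the permutation tests and the SE of the gene pairs. Number 2 stood apart in both groups by high Xist (9.03 and 9.80 against 3.73 to 4.04 elsewhere) and low Eif2s3y (1.98 and 2.24 against 6.78 to 7.31). Across genes, the correlation of same-number deviations from their group's mean was 0.20 for number 1, 0.06 for number 2 and -0.05 for number 3. The alternatives tried were the replicate block, quantile normalization, centring, array weights, an intensity trend, a filter on low means (13292 genes stayed), probe set means, single probe sets and left-out arrays. The floor for lower bounds and the alternatives for pairs with Lmnb2 were chosen after seeing the data.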

Additional observations from a re-analysis of the deposited data

How the results depend on the processing

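All 8 members kept their direction and their side of the threshold under each alternative run. Over the 14 alternatives that used 1 value per gene, the adjusted p of limma ran from 0.00046 to 0.011 for Lmnb1, from 6.9e-05 to 0.0034 for Tmpo and from 0.0018 to 0.030 for Vrk1, and its lowest value for any other member was 0.068, for Lbr. With the replicate block the differences were the same and the adjusted p was 0.0029 for Lmnb1, 0.00039 for Tmpo, 0.0055 for Vrk1, 0.27 for Lbr and 0.55 for Lmna.

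Leaving out single arrays moved the change of Lmnb1 minus Vrk1 between -0.065 and 0.12 and that of Lmnb2 minus Emd between -0.12 and 0.20, so neither has a settled sign. The other 11 pairs kept theirs, but Lmnb1 minus Tmpo ran from -0.29 (without GFP-negative 2) to -0.65 (without GFP-negative 3) and Lmnb2 minus Banf1 from 0.01 (without GFP-positive 3) to 0.22 (without GFP-negative 2). The number of lower genes over all genes, 23, was 53 with array weights, 13 with centring, 38 with quantile normalization, 9 without both arrays of number 2, 6, 11 and 29 when GFP-negative arrays 1, 2 and 3 were left out in turn, and 9 when each GFP-positive array was. Called inner membrane genes were 2 with array weights and 2 with the replicate block, heterochromatin partners 2 with array weights, and pore genes 8 with array weights, 5 without both arrays of number 2 and 1 to 5 without single arrays. Called Kupffer markers were 0 with the block, 0 without both arrays of number 2 and 0 without any single array. Called envelope sealing genes and erythroid markers ran from 0 to 1 without single arrays. The cause of these shifts was not tested. Lmnb2 and the second Banf1 probe set lay near the array medians, and the effect of that on their measured differences was not tested.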
